A study of Homo sapiens with 18 samples.

Results

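The 9 genes described here encode laminins, the integrins that bind them and DST, a protein of the hemidesmosome, in prostate cancer cells after siRNA knockdown of TRIM24. They were taken as every probe set that the array annotation gives to LAMC1, LAMB1, LAMA5, LAMB3, ITGA2, ITGA6, ITGB1, ITGB4 or DST and to no other gene, 9 of the 19775 genes named on the array. This gave 32 of the 54675 probe sets measured, of which 18 were bright enough to test. The arrays carried total RNA of 2 established human cell lines in 6 groups of 3 arrays. LNCaP is an androgen-responsive line from a prostate cancer metastasis, and LNCaP-abl is a line derived from it by long culture without androgen. LNCaP received a control siRNA (siControl) or an siRNA against TRIM24 (siTRIM24) for 48 h, and with each siRNA either ethanol vehicle or 10 nM dihydrotestosterone (DHT), the strongest natural androgen, for 24 h. LNCaP-abl received the same siRNAs with vehicle only. So all groups were transfected, and the labels' growth protocol, which names only LNCaP, adds 48 h of hormone starvation in charcoal-stripped serum before treatment. Each line is a single model, no source used here gives the siRNA sequences, and the labels do not say whether the arrays of a group came from separate cultures. If they did not, the p-values below reflect technical spread alone.

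Laminins are heterotrimers of an alpha, a beta and a gamma chain that form the sheet of the basement membrane. Epithelial cells hold on to that sheet through integrins, each a pair of an alpha and a beta chain: alpha2 beta1 binds collagen and laminin, and alpha6 pairs with beta1 or with beta4 to bind laminin. The alpha6 beta4 pair nucleates the hemidesmosome, in which plectin and the epithelial product of DST (BP230) link the integrin to keratin filaments. In normal prostate this anchorage belongs mainly to basal cells, and prostate carcinomas commonly lose hemidesmosomes while keeping alpha6 beta1. TRIM24 is a chromatin reader and a coactivator of nuclear receptors.

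The promoters of LAMC1, LAMB1 and ITGA2 are shown because LAMC1 rose and ITGA2 fell with DHT in the same cells, and LAMB1, near the filter value, was lower. Each sequence is the 250 bases before the RefSeq start site, 5' to 3' on the gene's strand in build GRCh38.p14, from chr1:183023170-183023419 (plus strand), chr7:108003162-108003411 (minus strand) and chr5:52989102-52989351 (plus strand). Capitals mark GC boxes, written GGGCGG or, on the other strand, CCGCCC.
LAMC1: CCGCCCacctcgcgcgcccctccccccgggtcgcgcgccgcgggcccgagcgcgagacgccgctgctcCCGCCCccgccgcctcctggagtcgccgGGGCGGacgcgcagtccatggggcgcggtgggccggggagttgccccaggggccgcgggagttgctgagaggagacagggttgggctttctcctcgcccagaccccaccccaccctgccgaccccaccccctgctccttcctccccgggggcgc
LAMB1: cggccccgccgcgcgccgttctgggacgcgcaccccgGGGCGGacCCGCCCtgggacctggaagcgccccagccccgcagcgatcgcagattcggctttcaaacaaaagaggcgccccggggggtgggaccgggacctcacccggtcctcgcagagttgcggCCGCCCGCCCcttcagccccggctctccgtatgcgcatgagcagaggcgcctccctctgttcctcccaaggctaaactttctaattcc
ITGA2: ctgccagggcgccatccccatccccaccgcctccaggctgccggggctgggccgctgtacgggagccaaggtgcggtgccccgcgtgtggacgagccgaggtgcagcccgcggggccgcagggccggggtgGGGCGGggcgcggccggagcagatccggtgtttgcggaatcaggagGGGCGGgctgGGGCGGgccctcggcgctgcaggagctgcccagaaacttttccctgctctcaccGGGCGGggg
The LAMC1 window was 79.6% GC and held 3 GC boxes, the LAMB1 window 70.4% and 4, and the ITGA2 window 76.4% and 4; overlapping matches were counted separately. A GC box stood in 42.6% of all 35116 windows of this length in the RefSeq table. The AP-1 site TGAGTCA, searched on both strands, was in none of these 3 windows, against 4.2% of all windows. Neither was the retinoic acid receptor half-site AGGTCA (12.1%) or the androgen receptor half-site AGAACA (12.4%). Among the other members, 1 LAMB3 window held 1 androgen receptor half-site and another held 1 AP-1 site. An ITGA6 window held 2 androgen receptor half-sites. Binding was not tested. RefSeq windows were matched for 8 of the 9 genes, 14 windows in all.

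Values are log2 expression as deposited, so a difference of 1 is a doubling. A probe set was tested if its third-highest array reached 5.88, the median of the whole table, which kept 29811 probe sets. Array medians ran from 5.83 to 5.93, and arrays within a group correlated at 0.996 to 0.998. TRIM24 itself changed by -1.99 (log2) with its siRNA in LNCaP with vehicle, by -2.14 under DHT and by -2.08 in LNCaP-abl. All 6 luminal prostate markers measured reached the filter, although KLK2 and KRT19 did so on 6 of 18 arrays. None of the 4 basal markers measured (KRT5, KRT14, KRT15 and CD44) reached it. Of fibroblast markers 4 of 6 reached it: COL1A1 on all 18 arrays, DCN and PDGFRB on 13 each and COL3A1 on 6. Of leukocyte and endothelial markers 3 of 5 did: PECAM1 and VWF on all 18 arrays and CD3E on 9. The others of that list, PTPRC and CDH5, stayed at or below 3.54 and 4.46. In such bulk RNA, fewer cells of a kind and less RNA per cell cannot be told apart. The 3' to 5' signal ratio of the GAPDH control probe sets, a sign of RNA quality, was higher with TRIM24 siRNA: 0.59 against 0.52 (log2 means) in vehicle-treated LNCaP, 0.63 against 0.56 under DHT and 0.64 against 0.56 in LNCaP-abl. The ACTB ratio moved likewise, from 1.87 to 2.05, from 1.85 to 2.19 and from 1.87 to 1.99. The part of this ratio in the knockdown results was not tested beyond fits that took it as a covariate, which are given where they ended a call.

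The tested probe sets were 2 for LAMC1, 2 for LAMB1, 1 for LAMA5, 1 for LAMB3, 2 for ITGA2, 2 for ITGA6, 3 of 7 for ITGB1, 2 of 5 for ITGB4 and 3 of 10 for DST. The 14 others lay between 2.55 and 6.0 on all arrays, and their changes were not tested: 4 of ITGB1 (2.55 to 3.63), 3 of ITGB4 (4.28 to 5.66) and 7 of DST (2.62 to 6.0). Of the 18 tested, 13 reached the filter value on every array. LAMB1 did so only in LNCaP with vehicle, on 6 arrays (201505_at) and 5 (211651_s_at) of 18, LAMB3 only in LNCaP, and ITGA2 only in LNCaP apart from 1 LNCaP-abl array of 205032_at. Calls of these 5 as lower under DHT (LAMB1) or in LNCaP-abl are therefore given as measured and are not independent of the filter. For LAMA5, 1 further probe set that the annotation shares with another gene was left out. Over the 18 arrays the probe sets of one gene followed each other closely for DST (Pearson r 0.957 to 0.998), ITGA6 (0.979), ITGA2 (0.925), ITGB1 (0.826 to 0.962) and LAMB1 (0.884). They did so less for LAMC1 (0.756), and the pair of ITGB4 probe sets did not (-0.114). Which part of the transcript each probe set reads was not looked up.

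**Figure D1:**
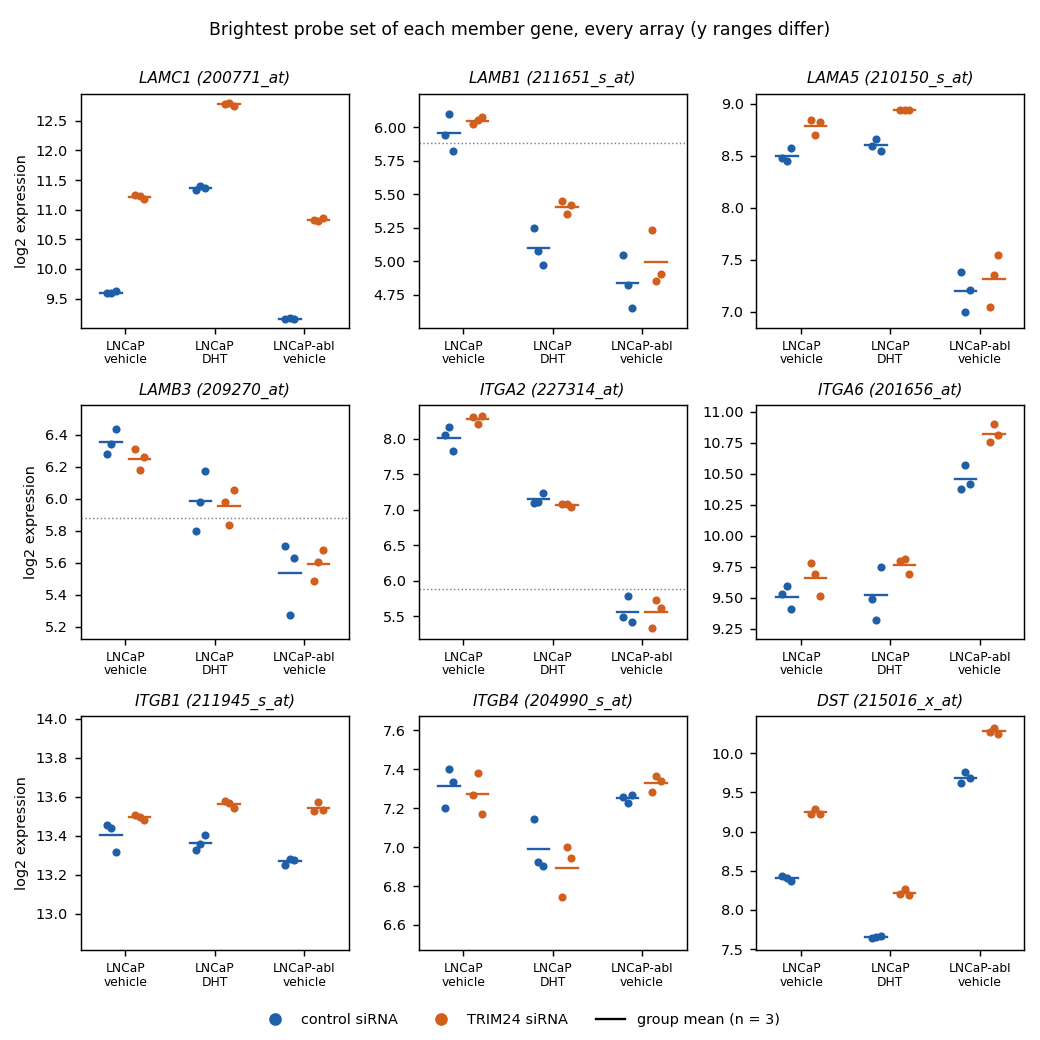
Log2 expression (y axis, ranges differ between panels) of the brightest probe set of each of the 9 genes on every array, by line and treatment (x axis), with control siRNA in blue and TRIM24 siRNA in orange; short lines are means of 3 arrays and the dotted line, where in range, is the filter value of 5.88. LAMC1 is higher with TRIM24 siRNA and with DHT, ITGA2 is lower with DHT and lowest in LNCaP-abl, and ITGA6 and DST are highest in LNCaP-abl.

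LAMC1, the gamma1 chain present in most laminins, gave the largest changes of the 9 genes with knockdown and with DHT. On probe set 200771_at, control arrays of LNCaP with vehicle read 9.59, 9.59 and 9.62, and TRIM24 siRNA arrays read 11.24, 11.24 and 11.19. Under DHT these were 11.32, 11.39 and 11.37 for control and, for TRIM24 siRNA, 12.79, 12.80 and 12.75. In LNCaP-abl the values were 9.15, 9.18 and 9.16 with control siRNA and 10.82, 10.81 and 10.85 with TRIM24 siRNA. No array of any of the 6 groups overlapped with another group, and the order from high to low was knockdown with DHT, control with DHT, knockdown with vehicle, knockdown in LNCaP-abl, control with vehicle and control in LNCaP-abl. Knockdown raised this probe set by 1.62 ± 0.03 (log2, SE, limma adjusted p = 3.42e-14), or 3.07-fold, in LNCaP with vehicle, by 1.42 ± 0.03 (1.07e-13), or 2.67-fold, with DHT, and by 1.67 ± 0.03 (4.53e-14), or 3.17-fold, in LNCaP-abl.

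The other LAMC1 probe set, 200770_s_at, did not follow it under knockdown. Its control and knockdown arrays in LNCaP with vehicle read 10.54, 10.51 and 10.48 against 10.32, 10.30 and 10.32, so that every knockdown array was lower. With DHT they read 11.86, 11.82 and 11.84 against 11.95, 11.99 and 12.01, and in LNCaP-abl 9.96, 9.99 and 9.96 against 10.11, 10.07 and 10.10, so that every knockdown array was higher. The changes were -0.20 ± 0.03 (limma adjusted p = 0.000163), +0.14 ± 0.03 (0.00215) and +0.12 ± 0.03 (0.00519). The call with DHT was lost with the 3' to 5' ratio as a covariate (0.15, adjusted p = 0.121), and the call in LNCaP-abl with median centring of the arrays (0.09, 0.0844) or with only its 2 groups in the fit (0.12, 0.0557). With the probe sets of a gene averaged, the LAMC1 change with knockdown was 0.71 in vehicle-treated LNCaP, 0.78 under DHT and 0.90 in LNCaP-abl.

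The gap between the 2 LAMC1 probe sets within an array (200771_at minus 200770_s_at) separated the siRNAs in every setting. Its mean went from -0.907 to 0.907 (log2) in LNCaP with vehicle, a shift of 1.82, from -0.478 to 0.796 with DHT, a shift of 1.27, and from -0.807 to 0.734 in LNCaP-abl, a shift of 1.54. With control siRNA, DHT moved the gap by 0.43. With TRIM24 siRNA it moved by -0.11, and between the lines by 0.10. Each of these 6 comparisons gave a two-sided exact permutation p of 0.1 (0.1 after Benjamini-Hochberg adjustment), the smallest that 3 arrays against 3 allow. So the large rise of LAMC1 with TRIM24 siRNA rested on 1 probe set of 2, whereas the rise with DHT was in both. With knockdown 200770_s_at was lower in LNCaP with vehicle and slightly higher under DHT and in LNCaP-abl, by calls that some fits lost. In every control group 200771_at was the dimmer of the 2. It was taken as the brightest through the TRIM24 siRNA arrays, so gene counts that use it favour a rise of LAMC1 with knockdown.

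**Figure D2:**
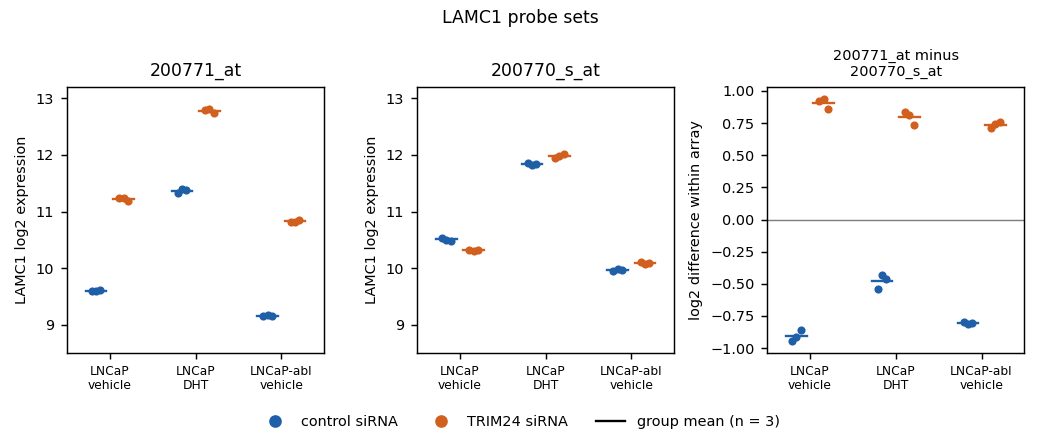
LAMC1 log2 expression (y axis) on both probe sets and the difference between them within each array (right), by line and treatment (x axis), with control siRNA in blue, TRIM24 siRNA in orange and lines at means of 3 arrays. With knockdown 200771_at is higher by 1.42 to 1.67 in the 3 settings while 200770_s_at moves by -0.20 to 0.14, and the difference goes from below 0 to above 0 in each.

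In LNCaP with vehicle, TRIM24 siRNA raised 5 of the 18 member probe sets (limma, adjusted p under 0.05) and lowered 1, where 18.4% of all tested probe sets were called higher and 15.6% lower. The median change was 0.17 over the members and 0.01 over all probe sets. The 5 higher were LAMC1 200771_at, DST 215016_x_at and 212254_s_at, LAMA5 and ITGB4 230704_s_at, and the lower one was LAMC1 200770_s_at. Probe sets of one gene are not separate members. By the brightest probe set of each gene, 3 of the 9 genes were called higher and 0 lower, where 19.5% and 17.1% of all genes were. DST, the plakin that ties integrins or other membrane partners to the cytoskeleton, had the largest change after LAMC1. Its probe set 215016_x_at read 8.44, 8.41 and 8.37 with control siRNA and 9.22, 9.29 and 9.23 with TRIM24 siRNA, with no overlap. The change was 0.84 ± 0.04 (adjusted p = 2.8e-10), or 1.79-fold, and 212254_s_at changed by 0.78 ± 0.04 (1.97e-09). The third DST probe set, 212253_x_at, had 6.40, 6.45 and 6.52 against 6.72, 6.82 and 6.62 and missed the threshold (0.26 ± 0.10, adjusted p = 0.0591). It passed with a stricter filter (0.0486), only the 2 groups in the fit (0.0156), an intensity trend and robust variances (0.0394) or array weights (0.021). LAMA5, the alpha chain of laminins in epithelial basement membranes, read 8.48, 8.45 and 8.58 against 8.84, 8.69 and 8.83. The groups did not overlap (0.29 ± 0.10, adjusted p = 0.0423).

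The LAMA5 and ITGB4 calls in LNCaP with vehicle were near the threshold. For LAMA5 the call was lost without control array 1 or 2 or TRIM24 siRNA array 1 or 3 (0.26 to 0.27, adjusted p up to 0.121), with no low-value filter (0.0763), with quantile normalization (0.0738) and with the 3' to 5' covariate (0.07, 0.732). ITGB4 230704_s_at, one of the probe sets of the beta4 chain, read 6.21, 6.18 and 6.09 against 6.43, 6.31 and 6.28 (0.18 ± 0.07, adjusted p = 0.0487). Its call was lost without control array 1, 2 or 3 or TRIM24 siRNA array 1 or 2 (0.13 to 0.20, adjusted p up to 0.194), with no filter (0.1), with an intensity trend and robust variances (0.102) and with the covariate (0.215). The other ITGB4 probe set changed by -0.04 ± 0.08 (adjusted p = 0.756). All ITGA2, ITGA6, ITGB1, LAMB1 and LAMB3 probe sets missed the threshold here, with changes from -0.10 (LAMB3) to 0.28 (LAMB1 201505_at). ITGA2 227314_at (0.26 ± 0.11, adjusted p = 0.0686) passed it without control array 2 (0.34, 0.0366), with an intensity trend and robust variances (0.0427) and with its 2 probe sets averaged (0.23, 0.0286). So did ITGB1 1553530_a_at with the covariate (0.18 against 0.07, adjusted p = 0.0273), ITGB1 211945_s_at with an intensity trend and robust variances (0.09, 0.0106) and LAMB1 201505_at with only the 2 groups in the fit (0.28, 0.0428).

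With DHT present, TRIM24 siRNA raised 11 of the 18 member probe sets and lowered none (limma), where 17.2% of all tested probe sets were called higher and 18.1% lower; the median change was 0.22 against 0.01 over all. Counted by brightest probe set, 5 of the 9 genes were called higher and 0 lower, where 18.5% and 19.9% of all genes were. ITGB1, the beta1 chain shared by most laminin and collagen receptors, was higher on all 3 tested probe sets. On 1553678_a_at they went from 11.32, 11.34 and 11.38 to 11.64, 11.57 and 11.63, and on 1553530_a_at 10.95, 11.06 and 10.91 against 11.33, 11.31 and 11.26. Neither pair of groups overlapped. The changes were 0.26 ± 0.05 (adjusted p = 0.000282) and 0.33 ± 0.05 (5.52e-05), and 211945_s_at, whose values of 13.33 to 13.58 are near the highest value in the table of 14.83, changed by 0.20 ± 0.04 (0.000623). With the 3' to 5' covariate the change of 1553530_a_at was 0.52. Averaged over all 7 ITGB1 probe sets, of which the 4 untested ones at 2.55 to 3.63 dilute the mean, the change was 0.12.

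DST again rose on 215016_x_at, from 7.64, 7.65 and 7.66 to 8.20, 8.27 and 8.19 (0.57 ± 0.04, limma adjusted p = 2.1e-08), and on 212254_s_at (0.46 ± 0.04, 7.85e-07), with no overlap between groups on either. The third DST probe set, 212253_x_at, was not called (0.14 ± 0.10, 0.34), and its groups overlapped. LAMA5 read 8.59, 8.66 and 8.55 against 8.93, 8.94 and 8.94 with DHT (0.34 ± 0.10, adjusted p = 0.0169). The LAMA5 groups did not overlap, but the call was lost without control array 3 (0.31, 0.057), and with the 3' to 5' covariate the change was -0.01 (0.979). LAMB1, the beta1 chain of laminins, rose by 0.31 ± 0.11 (0.035) on 211651_s_at and by 0.48 ± 0.16 (0.0271) on 201505_at, all DHT arrays of both lying below the filter value. The first call was lost without control array 2 or 3 or knockdown array 1, 2 or 3 (0.24 to 0.34, up to 0.141), with no filter (0.0644) and with the covariate (0.47, 0.147); the second without control or knockdown array 1 or 2 (0.40 to 0.48, up to 0.102) and with the covariate (0.82, 0.0809). ITGA6, the alpha6 chain, read 7.83, 7.83 and 7.87 against 8.18, 8.05 and 7.89 on 215177_s_at (0.20 ± 0.06, 0.0213). That call was lost without control or knockdown array 1 or 2 (0.13 to 0.19, up to 0.125), with no filter (0.0507), with only the 2 groups in the fit (0.0821) and with the covariate (0.25, 0.187). The other ITGA6 probe set just missed the threshold (0.25 ± 0.09, 0.0517) and passed it without control array 3 (0.36, 0.00444).

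In LNCaP-abl, TRIM24 siRNA raised 10 of the 18 member probe sets and lowered 1 (limma), where 16.3% of all tested probe sets were called higher and 24.9% lower, and the median change was 0.22 against 0.00. Both ITGA6 probe sets, all 3 of ITGB1 and all 3 of DST were among the higher ones, so RNA of both chains of alpha6 beta1 was higher. The receptor itself was not measured. Of the 9 genes, taken by brightest probe set, 4 were called higher and 0 lower, where 15.9% and 27.9% of all genes were. ITGA6 201656_at read 10.38, 10.57 and 10.42 with control and 10.76, 10.90 and 10.81 with TRIM24 siRNA, and 215177_s_at 8.90, 9.00 and 8.97 against 9.32, 9.49 and 9.39. Neither pair overlapped. The changes were 0.37 ± 0.09 (adjusted p = 0.00538, but 0.30 and 0.0706 when fitted with the 3' to 5' covariate) and 0.44 ± 0.06 (3.43e-05). ITGB1 1553678_a_at read 10.99, 11.11 and 11.08 against 11.45, 11.48 and 11.50 (0.41 ± 0.05, 2.7e-06), and the other tested ITGB1 probe sets changed by 0.40 ± 0.05 (5.93e-06) and 0.28 ± 0.04 (3.03e-05). DST 215016_x_at read 9.61, 9.76 and 9.68 against 10.28, 10.32 and 10.25 (0.60 ± 0.04, 1.31e-08), also without overlap, and 212254_s_at changed by 0.58 ± 0.04 (5.52e-08). The third, 212253_x_at, rose by 0.34 ± 0.10 (0.0147), a call lost without knockdown array 2 (0.26, 0.0771) and with the covariate (0.34, 0.0706).

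The 1 probe set called lower in LNCaP-abl was LAMB1 201505_at, at 4.26, 5.01 and 4.96 with control and 4.42, 4.38 and 4.14 with TRIM24 siRNA. The groups overlapped, all 6 arrays were below the filter value, and the change was -0.43 ± 0.16 (limma adjusted p = 0.0397). The call was lost without control array 2 or 3 or knockdown array 2 or 3 (-0.47 to -0.30, adjusted p up to 0.177), with no filter (0.0637), with only the 2 groups (0.135) and with the 3' to 5' covariate (-0.27, 0.319). Without control array 1 the change was -0.67. The other LAMB1 probe set changed by 0.16 ± 0.11 (0.264). LAMA5 was at 7.39, 7.00 and 7.21 against 7.05, 7.36 and 7.54 in LNCaP-abl and was not called (0.12 ± 0.10, 0.378), but was without knockdown array 1 (0.25, 0.0376). ITGA2, the alpha2 chain of a collagen and laminin receptor, was not called on either probe set in any of the 3 knockdown comparisons, and neither was LAMB3, the beta3 chain of the hemidesmosomal laminin, or ITGB4 204990_s_at. The 95% interval of the ITGA2 227314_at change was 0.04 to 0.49 in vehicle-treated LNCaP, -0.30 to 0.14 under DHT and -0.23 to 0.22 in LNCaP-abl. The 3 knockdown comparisons use separate arrays.

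**Figure D3:**
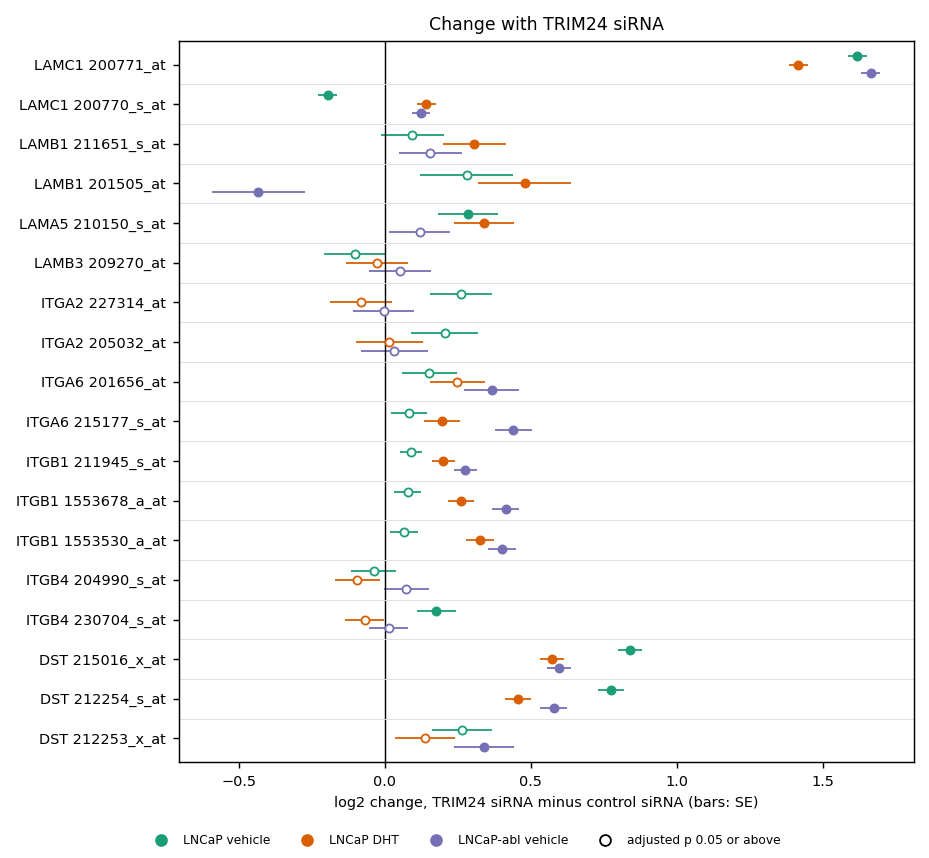
Log2 change with TRIM24 siRNA (x axis, TRIM24 siRNA minus control, bars are SE) of each of the 18 tested probe sets (y axis) in LNCaP (vehicle or DHT) and in LNCaP-abl; filled points passed an adjusted p of 0.05 and open ones did not. LAMC1 200771_at stands at 1.42 to 1.67 and DST 215016_x_at at 0.57 to 0.84 in all 3 settings, while the ITGB1 changes are 0.07 to 0.09 (open points) in LNCaP with vehicle, 0.20 to 0.33 with DHT and 0.28 to 0.41 in LNCaP-abl.

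By brightest probe set, LAMC1 was called higher with DHT and LAMB1, LAMB3, ITGA2, ITGB4 and DST lower, with limits given below for LAMB1, LAMB3 and ITGB4. With control siRNA, 3 of the 18 member probe sets rose and 11 fell (limma), where 18.4% of all tested probe sets were called higher and 21.4% lower; with TRIM24 siRNA 2 rose and 9 fell, where 16.2% were called higher and 21.8% lower. The median change was -0.24 against -0.02 over all probe sets with control siRNA and -0.16 against -0.03 with TRIM24 siRNA. Taken by brightest probe set, 1 of the 9 genes rose and 5 fell with each siRNA. Over all genes 18.7% rose and 25.2% fell with control siRNA, and 16.3% and 25.6% with TRIM24 siRNA. The falls include LAMB1, which passed the filter only through vehicle arrays, and ITGB4, whose other tested probe set rose with control siRNA. LAMC1 200771_at rose by 1.76 ± 0.03 (adjusted p = 6.89e-16), or 3.39-fold, with control siRNA and by 1.56 ± 0.03 (2.49e-15) with TRIM24 siRNA. On 200770_s_at the rises were 1.33 ± 0.03 (1.43e-14), or 2.52-fold, and 1.67 ± 0.03 (8.38e-16). DHT also raised 5 of the 6 luminal markers and lowered 1 with each siRNA (median change 1.78 and 2.06). KLK2 and KRT19 reached the filter value on only 6 of 18 arrays each, so their calls may not be independent of the filter. The part of these markers in the member results was not tested.

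LAMB1 was lower with DHT on both probe sets, which had passed the filter only through the vehicle arrays. On 211651_s_at the vehicle arrays read 5.94, 6.10 and 5.82 and the DHT arrays 5.24, 5.08 and 4.97 with control siRNA, and 6.02, 6.05 and 6.07 against 5.45, 5.35 and 5.42 with TRIM24 siRNA. Neither pair overlapped, but the DHT arrays lay below the filter value, where differences are compressed. The changes, which this choice of probe sets favours, were -0.86 ± 0.11 (limma adjusted p = 7.03e-06) and -0.64 ± 0.11 (0.000138), and on 201505_at -1.09 ± 0.16 (3.78e-05) and -0.89 ± 0.16 (0.000278). LAMB3 fell by 0.37 ± 0.11 on the log2 scale with control siRNA (0.0111; -0.28 and 0.0649 without DHT array 1). With TRIM24 siRNA it fell by 0.29 ± 0.11 (0.0399), a call lost without vehicle array 1 or 3 or DHT array 1 or 2 (-0.30 to -0.23, up to 0.157) and with no filter (0.0708). LAMA5 was not called with DHT under either siRNA (0.10 ± 0.10, adjusted p = 0.49, and 0.15 ± 0.10, 0.285), with 95% intervals of -0.12 to 0.32 and -0.07 to 0.37; with only the 2 groups in the fit the second was called (0.0384).

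Among the receptors, ITGA2 fell most with DHT. Its probe set 227314_at read 8.06, 8.17 and 7.83 with vehicle and 7.10, 7.10 and 7.23 with DHT under control siRNA, and 8.31, 8.21 and 8.32 against 7.08, 7.08 and 7.04 under TRIM24 siRNA. The groups were apart in both cases. The change was -0.87 ± 0.11 (limma adjusted p = 4.87e-06), to 54.6% of the vehicle level, and -1.21 ± 0.11 (1.02e-07), to 43.1%. The dimmer probe set 205032_at changed by -0.39 ± 0.12 (0.0137; -0.29 and 0.0802 without DHT array 3) and -0.57 ± 0.12 (0.000758). Neither ITGA6 probe set was called: 201656_at changed by 0.01 ± 0.09 (interval -0.19 to 0.21) with control siRNA and by 0.10 ± 0.09 (-0.10 to 0.30) with TRIM24 siRNA. ITGB1 was called on 2 of 3 probe sets with control siRNA, by small falls. On 1553678_a_at it was -0.16 ± 0.05 (0.0116), lost without vehicle array 1 (-0.13, 0.054), with median centring (-0.13, 0.066) and with only the 2 groups (0.0526). On 1553530_a_at it was -0.14 ± 0.05 (0.0282), lost without vehicle array 1 or 2 or DHT array 1 or 3 (-0.13 to -0.11, up to 0.123), with centring (-0.11, 0.0928), with no filter (0.0727) and with only the 2 groups (0.111). With TRIM24 siRNA the ITGB1 changes were 0.02 to 0.12 and not called, though 1553530_a_at was with the 3' to 5' covariate (0.20, 0.00451), and it also was under 4 other alternatives (adjusted p 0.0152 to 0.0493).

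Of the hemidesmosome genes, DST fell on all 3 tested probe sets with both siRNAs: 215016_x_at went from 8.44, 8.41 and 8.37 to 7.64, 7.65 and 7.66 with control siRNA and from 9.22, 9.29 and 9.23 to 8.20, 8.27 and 8.19 with TRIM24 siRNA. No arrays overlapped. The changes were -0.76 ± 0.04 (limma adjusted p = 2.74e-10), to 59.2% of the vehicle level, and -1.02 ± 0.04 (5.71e-12), to 49.2%. On 212254_s_at they were -0.64 ± 0.04 and -0.96 ± 0.04, and on 212253_x_at -0.37 ± 0.10 (0.00899; -0.28 and 0.0554 without DHT array 3) and -0.50 ± 0.10 (0.00102). ITGB4 204990_s_at read 7.20, 7.40 and 7.33 against 7.14, 6.92 and 6.90 with control siRNA and fell by 0.32 ± 0.08 on the log2 scale (0.00291), and by 0.38 ± 0.08 (0.000806) with TRIM24 siRNA. The other ITGB4 probe set went the other way with control siRNA, 0.21 ± 0.07 (0.0186), a call lost without vehicle array 3 (0.17, 0.0813) or DHT array 2 (0.19, 0.0567), and changed by -0.04 ± 0.07 (0.715) with TRIM24 siRNA. The ITGB4 probe sets thus give no single direction for this gene.

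Between the lines, both with control siRNA and vehicle, 6 of the 18 member probe sets were higher in LNCaP-abl and 11 lower (limma), where 28.3% of all tested probe sets were called higher and 31.4% lower; the median change was -0.44 against -0.01. All 4 laminin genes and ITGA2 were lower in LNCaP-abl, and ITGA6 and DST were higher. By brightest probe set, 2 of the 9 genes were called higher and 6 lower, where 28.6% and 34.1% of all genes were. The 5 lower probe sets of LAMB1, LAMB3 and ITGA2 had passed the filter through LNCaP arrays. These counts and the median are therefore not independent of the filter. ITGA2 227314_at read 8.06, 8.17 and 7.83 in LNCaP and 5.48, 5.79 and 5.41 in LNCaP-abl, without overlap and below the filter value in LNCaP-abl. The difference was -2.46 ± 0.11 (adjusted p = 5.34e-12), and on 205032_at -0.80 ± 0.12 (1.45e-05). With the ITGA2 probe sets averaged it was -1.63. LAMA5 read 8.48, 8.45 and 8.58 against 7.39, 7.00 and 7.21 (-1.30 ± 0.10, 1.32e-08). LAMB1 was lower by -1.11 ± 0.11 (1.47e-07) and -1.33 ± 0.16 (1.94e-06) and LAMB3 by -0.81 ± 0.11 (5.08e-06), all with LNCaP-abl arrays below the filter value. LAMC1 was lower by -0.44 ± 0.03 (6.45e-09) and -0.54 ± 0.03 (3.21e-10).

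The alpha6 chain and DST made up most of the higher probe sets in LNCaP-abl. ITGA6 201656_at read 9.53, 9.59 and 9.41 in LNCaP and 10.38, 10.57 and 10.42 in LNCaP-abl, with no overlap (0.95 ± 0.09, limma adjusted p = 2.15e-07), and 215177_s_at differed by 0.99 ± 0.06 (7.23e-10), or 1.98-fold. Over all groups of 201656_at, both LNCaP-abl groups stood above the 4 LNCaP groups, in which each overlapped with its neighbour in the order. DST 215016_x_at read 8.44, 8.41 and 8.37 against 9.61, 9.76 and 9.68 (1.28 ± 0.04, 1.26e-13), or 2.43-fold, and the other DST probe sets were higher by 1.25 ± 0.04 and 0.89 ± 0.10. ITGB1 was lower on 3 of 3 probe sets, by -0.48 ± 0.05 (2.15e-07), -0.45 ± 0.05 (3.17e-07) and, near the top of the range, -0.14 ± 0.04 (0.00596; 0.062 with only the 2 groups in the fit). Averaged over all 7 ITGB1 probe sets, the 4 untested dim ones included, the difference was -0.24. ITGB4 was called on 230704_s_at (0.23 ± 0.07, 0.0066) and not on 204990_s_at (-0.06 ± 0.08, 0.533). Of the 6 luminal markers 5 were lower in LNCaP-abl (median change -0.46), and their part in the result was not tested. This comparison, the DHT comparison and the knockdown comparison in LNCaP with vehicle share the control arrays with vehicle.

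**Figure D4:**
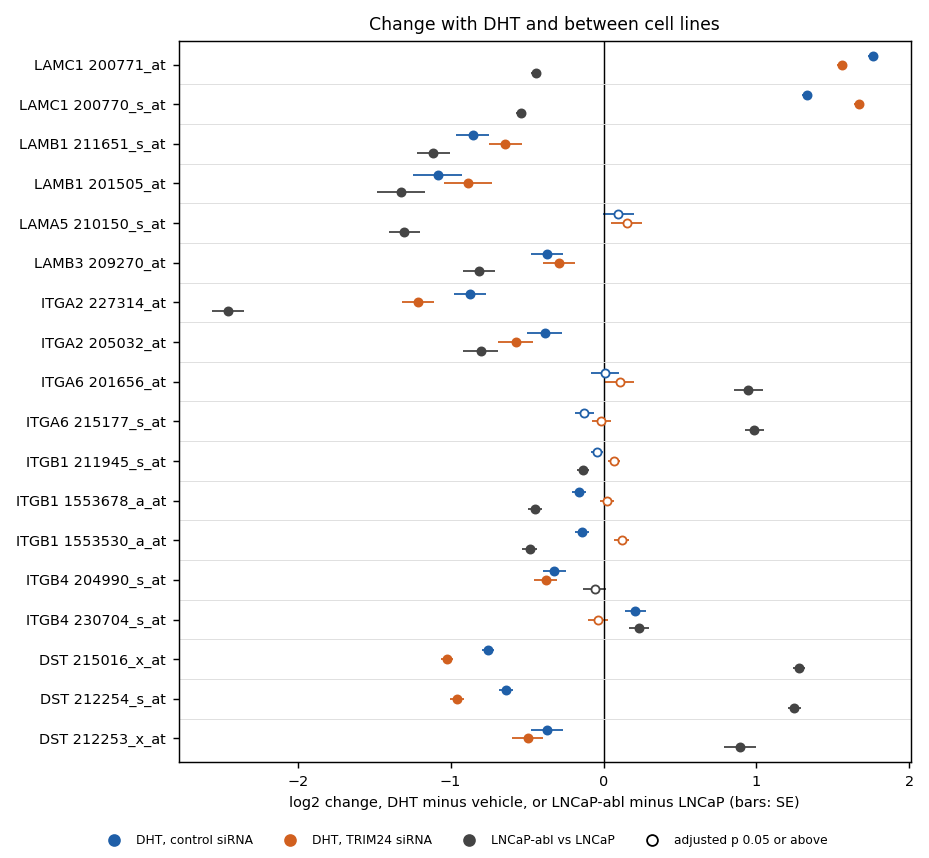
Log2 change (x axis, bars are SE) of each of the 18 tested probe sets (y axis) with DHT under control siRNA, with DHT under TRIM24 siRNA, and in LNCaP-abl against LNCaP; filled points passed an adjusted p of 0.05 and open ones did not. LAMC1 is to the right for DHT, by 1.33 to 1.76, LAMB1, ITGA2 and DST to the left, and for the lines ITGA6 and DST are to the right and the laminins and ITGA2 to the left.

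The interaction terms tested whether the knockdown change differed between settings. Between DHT and vehicle in LNCaP, 5 of the 18 member probe sets were called (limma), 2 with a more positive and 3 with a more negative change under DHT, where 3.49% and 3.36% of all tested probe sets were. In genes, by brightest probe set, these were 0 and 2 of 9, where 4.22% and 4.17% of all genes were called. The difference for DST 215016_x_at was -0.27 ± 0.06 (adjusted p = 0.0108, but 0.0511 with no filter) and for 212254_s_at -0.32 ± 0.06 (0.0067). So these 2 DST probe sets rose less with knockdown under DHT. For the third, 212253_x_at, the difference was -0.13 ± 0.15 and not called (0.668). For LAMC1 it was -0.20 ± 0.05 (0.0156) on 200771_at, lost with no filter (0.0928) and turned to 0.07 (0.265) with the probe sets averaged, and 0.34 ± 0.05 (0.000334) on 200770_s_at. ITGB1 1553530_a_at rose more under DHT, by 0.26 ± 0.07 (0.0317). That call was lost with no filter (0.103), with median centring (0.24, 0.0625) and when any of 9 arrays was left out (0.23 to 0.27, up to 0.0815): control with vehicle 1 or 2, knockdown with vehicle 1, 2 or 3, control with DHT 1 or 3, or knockdown with DHT 1 or 2.

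Between LNCaP-abl and LNCaP with vehicle, the knockdown change differed for 8 of the 18 member probe sets (limma), 5 more positive in LNCaP-abl and 3 more negative, where 6.67% and 14.8% of all tested probe sets were. As genes, by brightest probe set, 1 of 9 was more positive and 1 more negative, where 7.22% and 17.8% of all genes were. All 3 ITGB1 probe sets rose more in LNCaP-abl, by 0.34 ± 0.06 (adjusted p = 0.00193) on 1553678_a_at, 0.34 ± 0.07 (0.00257) on 1553530_a_at and 0.19 ± 0.05 (0.0232) on 211945_s_at. The last call was lost without control array 1 or 2 or knockdown array 3 of LNCaP or knockdown array 2 of LNCaP-abl (0.16 to 0.18, up to 0.061), with centring (0.14, 0.122), with no filter (0.0816) and with only the groups compared (0.0502). ITGA6 215177_s_at rose more in LNCaP-abl by 0.36 ± 0.09 (0.00917); for 201656_at the term was 0.21 ± 0.13 (0.276), and with both averaged 0.29 (0.0362). LAMC1 200770_s_at gave 0.32 ± 0.05 (0.000159) and 200771_at 0.05 ± 0.05 (0.517). DST rose less in LNCaP-abl on 2 of its 3 tested probe sets, by -0.24 ± 0.06 (0.00735) on 215016_x_at and -0.20 ± 0.06 (0.0379) on 212254_s_at. The term for 212253_x_at was 0.08 ± 0.15 and not called (0.754).

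The 2 remaining interaction calls near the threshold each depended on single arrays. The DST 212254_s_at term between the lines was lost without control array 1 or 3 or knockdown array 1 of LNCaP, or control array 2 or knockdown array 2 or 3 of LNCaP-abl (-0.20 to -0.16, limma adjusted p up to 0.102), with no filter (0.103), quantile normalization (-0.14, 0.0949), array weights (0.0517) or only the groups compared (0.0827). LAMB1 201505_at, which lies below the filter value in LNCaP-abl, gave -0.71 ± 0.22 (0.034). That was lost without control array 3 or knockdown array 1 or 2 of LNCaP, or control array 2 or 3 or knockdown array 3 of LNCaP-abl (-0.69 to -0.58, up to 0.0859), with no filter (0.0608) and with only the groups compared (0.0575).

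The rest of the adhesion system was taken as 8 lists with 77 genes (other laminins, integrin chains, hemidesmosome and basement membrane genes, laminin receptors, integrin-linked adhesion genes and other ligands), of which 51 were tested through their brightest probe set. With TRIM24 siRNA, 2 rose and 9 fell in LNCaP with vehicle (limma), 4 rose and 6 fell with DHT, and 10 rose and 13 fell in LNCaP-abl, where over all genes 19.5% and 17.1%, 18.5% and 19.9%, and 15.9% and 27.9% did. Of the hemidesmosome genes tested, CD151, the tetraspanin that binds laminin-binding integrins, changed with knockdown by 0.02 ± 0.05 (adjusted p = 0.792) in vehicle-treated LNCaP, 0.32 ± 0.05 (0.000122) under DHT and 0.48 ± 0.05 (1.8e-06) in LNCaP-abl. Plectin (PLEC) rose in LNCaP-abl (0.26 ± 0.07, 0.0059) and missed the threshold in LNCaP with vehicle (0.01 ± 0.07, 0.899) and with DHT (0.15 ± 0.07, 0.11). Among other laminin receptors, the syndecan SDC1 fell in all 3 settings, by -0.87 ± 0.04, -0.72 ± 0.04 and -0.38 ± 0.04, and SDC4 rose in all 3, by 0.32 ± 0.05, 0.39 ± 0.05 and 0.31 ± 0.05. Fibronectin (FN1), a ligand of other integrins, fell by -0.35 ± 0.05, -0.46 ± 0.05 and -0.25 ± 0.05, and alpha-parvin (PARVA), an adapter of integrin tails, by -0.38 ± 0.04, -0.26 ± 0.04 and -0.26 ± 0.04.

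With DHT, 7 of the 51 rose and 16 fell under control siRNA (limma) and 8 rose and 12 fell under TRIM24 siRNA, where 18.7% and 25.2%, and 16.3% and 25.6%, of all genes did. The alpha chain of vitronectin receptors, ITGAV, rose by 0.80 ± 0.05 and 1.12 ± 0.05, the basement membrane collagen COL4A5 by 0.75 ± 0.05 and 0.78 ± 0.05, PARVA by 1.66 ± 0.04 and 1.78 ± 0.04, and thrombospondin 1 (THBS1) by 1.87 ± 0.16 and 1.94 ± 0.16. SDC4 fell by -0.90 ± 0.05 and -0.83 ± 0.05. In LNCaP-abl against LNCaP, 12 of the 51 were higher and 25 lower, where 28.6% and 34.1% of all genes were. LAMB2, the beta2 chain of laminins, was lower by -3.86 ± 0.15, FN1 by -3.10 ± 0.05, FERMT2, an integrin activator, by -4.13 ± 0.16 and THBS1 by -7.20 ± 0.16, whereas the ligand TNC was higher by 5.46 ± 0.13. A gene that reached the filter value in only 1 line or treatment could pass through those arrays alone. The counts and changes in this paragraph may therefore not be independent of the filter. The interaction with DHT was called higher for 3 and lower for 1 of the 51 (4.22% and 4.17% of all genes), and that with cell line for 7 and 5 (7.22% and 17.8%).

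The genes whose brightest probe set followed each member most closely over the 18 arrays, among 13606 others, are given as descriptions, since the points share arrays and groups. Each member was taken by its brightest probe set, for LAMC1 200771_at and for ITGB4 204990_s_at. The other tested probe set of these genes followed it less (LAMC1, 0.756) or not (ITGB4, -0.114), so their likeness holds for 1 probe set. LAMC1 was followed by TNFRSF10B (Pearson r 0.985), LSS (0.977) and IVD (0.974). LAMB1 was followed by PPP2R2A (0.968), LETMD1 (0.966) and DYNLT1 (0.965), LAMA5 by SSH3 (0.99), ELOA-AS1 (0.984) and BAX (0.984), and LAMB3 by ANK3 (0.946), MCF2L (0.943) and LINC03068 (0.939). Of the integrins, ITGA2 went with GPC4 (0.989), TARS3 (0.988) and DMRT1 (0.988), ITGA6 with BLTP1 (0.99), TDP2 (0.98) and CFAP20DC (0.977), ITGB1 with ADAM10 (0.957), EIF2AK3 (0.937) and KDELR1 (0.936), and ITGB4 with CDKN1A (0.905), CHD4 (0.903) and ACTRT3 (0.901). DST went with APPL1 (0.995), PKN2 (0.993) and RBM7 (0.991). No member was among the nearest 3 genes of another.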

How the data were processed

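Total RNA of 18 samples was hybridised to one-colour Affymetrix arrays, per the labels. The deposited log2 values were made by the authors with RMA, per the submitters' processing notes; its version and settings and the dates of scanning were not stated. RMA draws arrays to a common distribution, which hides any shift common to most transcripts, and it compresses dim values. Probe sets were named from the platform's annotation, with symbols updated through a RefSeq gene table (41043 probe sets). Probe sets with several symbols (1801) or none (11777) named no gene, and the 62 control probe sets were left out.

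One mean per group was fitted over all 18 arrays to every tested probe set with limma 3.58.1 in R 4.3.3 (12 residual degrees of freedom, moderated variances, two-sided tests, Benjamini-Hochberg adjustment over all 29811 tested probe sets of each of the 8 comparisons, threshold 0.05). The median residual SD was 0.085; the 3 arrays per group limit the precision. Exact permutation tests used scipy 1.17.1 (Python 3.11.15). Sequences are from RefSeq tables of GRCh38.p14; ITGB4 had no entry. The named genes are all member probe sets, up to 3 called genes without overlap per adhesion list and comparison, and the 3 most alike genes. CD151, PLEC and the array-specific values were named after their values were seen. The members and gene lists were chosen with earlier results of these data known.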

Additional observations from a re-analysis of the deposited data

Results flagged for a closer look

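The knockdown change differed between settings by a limma interaction term in 13 cases, given here with the log2 difference and adjusted p. Between DHT and vehicle in LNCaP it was -0.20 (0.0156) for LAMC1 200771_at, 0.34 (0.000334) for LAMC1 200770_s_at, 0.26 (0.0317) for ITGB1 1553530_a_at, -0.27 (0.0108) for DST 215016_x_at and -0.32 (0.0067) for DST 212254_s_at. Between LNCaP-abl and LNCaP it was 0.32 (0.000159) for LAMC1 200770_s_at, -0.71 (0.034) for LAMB1 201505_at, 0.36 (0.00917) for ITGA6 215177_s_at, 0.19 (0.0232) for ITGB1 211945_s_at, 0.34 (0.00193) for ITGB1 1553678_a_at, 0.34 (0.00257) for ITGB1 1553530_a_at, -0.24 (0.00735) for DST 215016_x_at and -0.20 (0.0379) for DST 212254_s_at. The 2 LAMC1 probe sets differ in the sign of the first term, which is the result a reader would most want to look at again with probe positions at hand.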

How the results depend on the processing

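Of 1536 single values of the 18 probe sets under named settings, 1448 counted as the same, 61 lost the call and 25 gained one. In 2 a called value reversed: the LAMC1 200771_at interaction with DHT as the mean of the probe sets (0.068) and LAMA5 under knockdown with DHT with the 3' to 5' covariate (-0.010). Direction was compared only where a value was called, so values counted as the same include uncalled ones that changed sign. One was LAMB1 211651_s_at under knockdown in LNCaP-abl, at 0.16 and, with the probe sets averaged, -0.14. With one array left out, 1010 of 1080 counted as the same, 67 lost a call, 3 gained one and 0 called values reversed. The cause of these changes was not tested, except that a stricter threshold or a wider set of tested probe sets calls fewer by construction. Counts of member probe sets called moved by over 1.5 times in these settings. With no low-value filter the interaction with DHT had 2 and that with cell line 5. With the covariate, knockdown with DHT had 6. With only the groups compared, the interaction with cell line had 5. At an adjusted p under 0.01, knockdown with DHT had 7, DHT with control siRNA 9, and the interactions 2 and 5. For genes, the interaction with DHT had 0 with no filter, with all probe sets of a gene averaged, untested ones included, and at 0.01, against 2; the interaction with cell line had 1 with no filter, median centring, only the groups compared and at 0.01, against 2; knockdown with vehicle had 5 with trend and robust variances, against 3; and knockdown with DHT had 3 with the covariate and at 0.01, against 5. Leaving out an array gave 4 to 5 probe sets and 2 to 3 genes (knockdown, vehicle), 8 to 10 and 4 to 5 (knockdown, DHT), 9 to 12 and 4 to 5 (LNCaP-abl), 11 to 13 and 5 to 6 (DHT, control siRNA), 10 to 11 and 5 to 6 (DHT, TRIM24 siRNA), 17 to 17 and 8 to 8 (lines), 4 to 5 and 2 to 2, and 6 to 8 and 1 to 2 (interactions).

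Arrays with the same replicate number did not deviate together (correlations -0.28 to 0.165, at most 1 of 3 arrays closest to its own number), so the numbers were not taken as pairs. With the replicate block, calls over all probe sets went from 10124 to 9981, 10533 to 10383 and 12277 to 12081 for the knockdowns and from 2044 to 1749 and 6396 to 5978 for the interactions. The one member call lost was LAMB1 201505_at in LNCaP-abl (-0.43, adjusted p = 0.0503).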
